A study of Homo sapiens with 10 samples.

Results

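Expression of 10 genes that mark epithelial and mesenchymal cell states was followed in NKX2-1GFP+ cells isolated from thyroid organoids that had been grown in vitro from a human embryonic stem cell line. The 10 genes were chosen by name, and all 10 were found among the 28265 gene symbols measured and among the 21014 genes tested. They comprise 3 epithelial genes (CDH1, EPCAM and ESRP1), 2 mesenchymal genes (CDH2 and VIM) and 5 transcription factors of the epithelial to mesenchymal transition (SNAI1, SNAI2, TWIST1, ZEB1 and ZEB2).

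Bulk RNA-seq gave 10 libraries, 2 for each of days 16, 23, 31, 38 and 45 of differentiation. All cells came from ESIBIe003-A-6, a HES3-derived line that carries GFP at 1 NKX2-1 allele and inducible NKX2-1 and PAX8 transgenes, which doxycycline had switched on at an early step. The labels give c-AMP for days 16, 23 and 31, TSH and DEX (dexamethasone) for day 38, and TSH and SB for day 45, where SB is the TGFβ receptor kinase inhibitor SB431542. By the study's methods, day 16 cells had not yet received the cAMP analogue, TSH and dexamethasone replaced it shortly before day 31, and day 45 cells were kept on dexamethasone as well. Its 2 descriptions of the schedule start SB431542 on different days, just before or on day 38. The labels differ on these points, so each day is a time and in part a medium, and the effects of the 2 cannot be told apart here. Wells were pooled for each sample, and cells kept on cAMP alone until days 38 and 45 were not analysed here. Counted reads totalled 7247268 to 10333933 per library, and 3 counts corresponded to 0.307 to 0.435 CPM, the count of a gene relative to the TMM-scaled total of its library.

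Epithelial cells are held together by E-cadherin (CDH1), a calcium-dependent adhesion protein of adherens junctions that binds the actin cytoskeleton through catenins. In the transition to a mesenchymal state, E-cadherin is lost, N-cadherin (CDH2) and the intermediate filament protein vimentin (VIM) are gained, and cells become motile. The factors of the SNAI, TWIST and ZEB families bind E-box sequences and repress epithelial genes, TGFβ signaling is a well-known inducer of several of them, and miRNAs of the miR-200 family repress ZEB1 and ZEB2. Thyroid follicular cells derive from endoderm and form an epithelium that expresses E-cadherin, and N-cadherin is present in normal thyroid epithelium too.

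The sequences through which this circuit is read are shown here for its best known pair of arms. The miR-200 family falls into groups by seed, bases 2 to 8 of the mature miRNA (capitals), which pairs with target transcripts such as those of ZEB1 and ZEB2. The sequences are from RefSeq (GRCh38.p14).
hsa-miR-141-3p: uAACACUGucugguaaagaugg
hsa-miR-200a-3p: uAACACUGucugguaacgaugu
hsa-miR-200b-3p: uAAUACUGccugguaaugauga
hsa-miR-200c-3p: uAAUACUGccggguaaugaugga
The first pair shares the seed AACACUG and the second pair the seed AAUACUG. Mature miRNAs were not measured by these libraries. At the hairpin genes, MIR141 had 0 counts in all 10 libraries, MIR200B 0 to 2, MIR200C 0 to 10 and MIR200A 0 to 14. MIR429, whose sequence is not shown here, had 0 to 6 counts. The host transcript MIR200CHG had 0 to 19, so the levels of these genes could not be followed at this depth.

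The E-box bound by ZEB and SNAI factors was searched as CAGGTG on both strands (CACCTG on the other) in RefSeq promoter windows, which reach from 250 bases before to 50 bases after a transcript start. Such windows were found for 4 of the genes (CDH2, VIM, ZEB1 and ZEB2), 11 windows in all, of which 7 belong to ZEB1. The E-box occurred in 2 windows, both of ZEB1, against 20.6% of all 35116 windows of this length. The ZEB1 window chr10:31318966-31319265 (GRCh38.p14, plus strand) held 3 matches, in capitals, at -242, -85 and 34 relative to the start, and is shown since ZEB1 changed in these data.
ZEB1 promoter: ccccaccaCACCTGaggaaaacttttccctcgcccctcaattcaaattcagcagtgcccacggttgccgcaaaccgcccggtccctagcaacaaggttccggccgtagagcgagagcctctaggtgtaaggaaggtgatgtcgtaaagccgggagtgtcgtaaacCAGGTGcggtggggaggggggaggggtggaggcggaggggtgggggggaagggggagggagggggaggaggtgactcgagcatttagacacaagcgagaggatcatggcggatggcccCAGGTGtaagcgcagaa
The cAMP response element TGACGTCA was in none of the 11 windows and in 1.85% of all windows. The AP-1 site TGANTCA was in 1 window of CDH2 and in 7.71% of all windows. These matches are descriptions of the sequence and were not tested as sites.

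Per kilobase of merged exon (GENCODE 44), VIM had the highest level of the 10 genes, with a mean over all libraries of 277 CPM per kb. EPCAM followed with 129 and CDH1 with 98.2 CPM per kb. CDH2 had 33.1 and ESRP1 16.4 CPM per kb on the same scale. The transcription factors were all lower, from 5.77 CPM per kb for SNAI1 through 3.89 for SNAI2, 3.88 for ZEB1 and 2.67 for ZEB2 to 0.554 for TWIST1. Merged exons of ZEB2 span 26151 bases over all annotated isoforms, so its level per length is a low estimate. Epithelial and mesenchymal markers were both present in the sorted population on all 5 days.

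The first comparison asked whether any day differed from the others. By the quasi-likelihood test of edgeR, with p-values adjusted by Benjamini-Hochberg over all tested genes, 8 of the 10 genes differed between days, against 36.3% of all genes. The exceptions were CDH1 (edgeR adjusted p = 0.0635) and TWIST1 (edgeR adjusted p = 0.439). CDH1 passed with DESeq2 (adjusted p = 0.00902), and in edgeR with upper-quartile factors (adjusted p = 0.0497), with no low-count filter (adjusted p = 0.0372), with a replicate block (adjusted p = 0.0234) and without either day 16 library (adjusted p = 0.00486 and 0.0200). Library size alone left 5 of the 10 called, and leaving out each library in turn left 5 to 9, the lowest without day 38 replicate 1. EPCAM was lost without replicate 2 of day 23 or 31 (edgeR adjusted p = 0.0696 and 0.0614) and ZEB1 without day 16 replicate 1 (edgeR adjusted p = 0.0790). Between neighboring days, 4 of the 10 genes were called from day 16 to day 23, against 10.9% of all genes, and 0 from day 23 to day 31, against 2.25%. On day 38 against 31, 1 was called, against 15.0% of all genes. On day 45 against 38 it was 1, against 11.2%, and on day 45 against 16 it was 1, against 24.6%. The counts of days 38 and 45 are near the background, and other settings gave up to 2 and 3 calls. In the step without a call, 1 gene (CDH2) had an unadjusted p under 0.05, and DESeq2 also called 0. The libraries of 2 neighboring days did not overlap for 7 of the 10 genes on day 23 (48.3% of all genes), 3 on day 31 (39.3%), 9 on day 38 (57.0%) and 8 on day 45 (54.8%), and for 5 on day 45 against 16 (57.8%). In these bulk libraries, fewer cells of a type and less RNA per cell cannot be told apart.

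**Figure D1:**
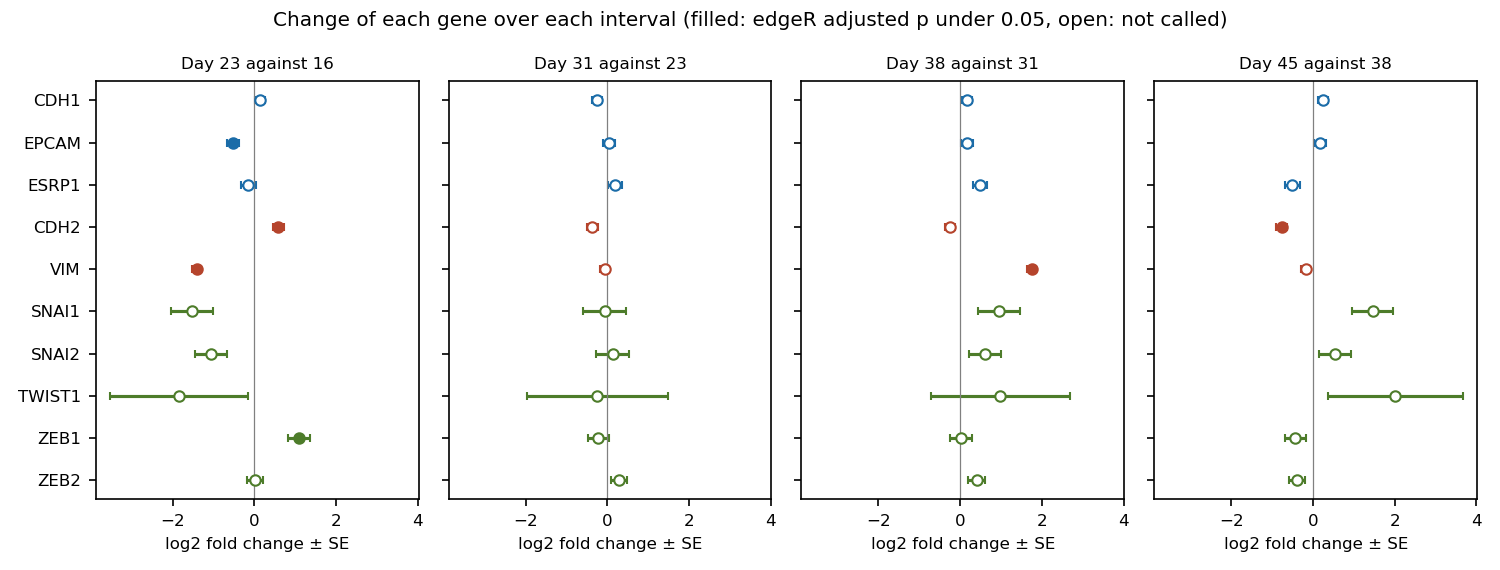
Log2 fold change (horizontal axes, ± SE) of the 10 genes over the 4 intervals between sampled days. Filled circles passed an adjusted p of 0.05 in edgeR's test and open circles did not. The largest called changes are those of VIM, -1.41 on day 23 and 1.75 on day 38, and no gene is filled on day 31.

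E-cadherin was abundant throughout. CDH1 (chromosome 16, 68737292 to 68835537, plus strand) had 629 and 494 CPM in the day 16 libraries, 659 and 579 on day 23, 528 and 518 on day 31, 624 and 545 on day 38, and 681 and 708 on day 45. Its day 45 libraries lay above all others, and the remaining days overlapped in the order of their means (day 23, 38, 16, 31). Scaled by library size alone, the day 45 libraries (648 and 676 CPM) were below day 23 replicate 1 (691 CPM). The mean of day 45 was 695 ± 19.2 CPM (SD, n = 2), and that of the lowest day, day 31, 523 ± 7.09. From day 16 to day 45 the log2 fold change was 0.31 ± 0.12 (SE; 95% interval -0.01 to 0.62), and edgeR's adjusted p was 0.0658. Without replicate 1 of day 16 it was 0.48, with an edgeR adjusted p of 0.00468.

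EPCAM, an adhesion molecule of most simple epithelia and their progenitors, dipped after day 16. The gene (chromosome 2, 47345158 to 47387601, plus strand) had 317 and 443 CPM on day 16, 283 and 245 on day 23, 276 and 270 on day 31, 339 and 277 on day 38, and 312 and 381 on day 45. Both day 23 libraries were below both day 16 libraries, whereas days 16 and 45 overlapped, as did days 45 and 38. EPCAM fell 1.44-fold by day 23 (log2 fold change -0.52 ± 0.14 SE; edgeR adjusted p = 0.0136). That call rested on single libraries, since without replicate 2 of day 16 the value was -0.26 (edgeR adjusted p = 0.311) and without replicate 2 of day 23 it was -0.42 (edgeR adjusted p = 0.211).

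ESRP1 directs epithelial patterns of alternative splicing and was highest on day 38. Its gene (chromosome 8, plus strand) had 69.1 and 79.8 CPM on day 16, 63.7 and 71.1 on day 23, 85.4 and 67.9 on day 31, 112 and 101 on day 38, and 72.4 and 78.1 on day 45. The day 38 libraries lay above all others, and those of the other 4 days overlapped in order. Although the days differed in the test of any day (edgeR adjusted p = 0.0165), neither the step into nor the step out of day 38 passed the threshold. The step in measured 0.48 ± 0.17 (log2 fold change ± SE; edgeR adjusted p = 0.0579) and the step out -0.50 ± 0.17 (edgeR adjusted p = 0.0541). With a replicate block both passed (edgeR adjusted p = 0.0494 and 0.0434). Without either day 16 library both steps passed (edgeR adjusted p from 0.0261 to 0.0366). The test of any day was lost with library size alone (edgeR adjusted p = 0.117), without either day 38 library (edgeR adjusted p = 0.303 and 0.0874) and without day 23 replicate 1 (edgeR adjusted p = 0.0514).

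N-cadherin rose from day 16 to day 23 and fell from day 38 to day 45, when it was lowest. CDH2 (chromosome 18, 27932879 to 28177946, minus strand) had 268 and 274 CPM on day 16, 412 and 404 on day 23, 331 and 305 on day 31, 279 and 255 on day 38, and 140 and 172 on day 45. The order of its levels was day 23, 31, 16, 38 and 45, and among neighbors in that order only days 16 and 38 overlapped. It rose 1.50-fold by day 23 (log2 fold change 0.59 ± 0.13 SE; edgeR adjusted p = 0.00153). It fell 1.71-fold between days 38 and 45, the step at the end of which the labels give SB431542 (log2 fold change -0.77 ± 0.13; edgeR adjusted p = 5.12e-05). Over the whole course, day 45 was 1.74-fold below day 16 (log2 fold change -0.80 ± 0.13; edgeR adjusted p = 1.03e-05). The intermediate steps had log2 fold changes of -0.36 ± 0.13 on day 31 and -0.25 ± 0.13 on day 38, and neither passed the test (edgeR adjusted p = 0.170 and 0.208). Scaled by library size alone, the day 38 value was -0.47 and was called. Neural markers, which matter here since N-cadherin is abundant in neural cells, were also lower on day 45 than on day 38. Their sum on day 45 was above that of day 16, while MAP2, the most abundant of them, was below. The part of these markers in the change of CDH2 was not tested. The 12 of them summed to 106 and 120 CPM on day 16, 135 and 145 on day 23, 191 and 206 on day 31, 278 and 305 on day 38, and 145 and 146 on day 45. MAP2, a neuronal microtubule protein, was the most abundant over all libraries. It had 73.8 and 60.7 CPM on day 16, 98.7 and 114 CPM on day 38 and 32.2 and 35.6 CPM on day 45. In a library, 0 to 4 of the 12 were at 0 counts. On day 45, 3 of the 11 tested were called, all lower (MAP2, NCAM1 and SOX2), against 11.2% of all genes. On day 23 it was 1 of the 11 (DCX, higher), a share at the background of 10.9%.

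The 2 cadherins can be compared within a library, where the scaling of the libraries cancels. For each CDH2 count there were 2.34 and 1.80 CDH1 counts on day 16, 1.60 and 1.43 on day 23, 1.60 and 1.70 on day 31, 2.24 and 2.14 on day 38, and 4.86 and 4.11 on day 45. Both day 45 libraries were above the other 8, and the day 23 and day 31 libraries were below the rest. The daily mean was 2.19 ± 0.0701 on day 38 and 4.49 ± 0.530 on day 45 (SD, n = 2). With 2 libraries a day, an exact test of this ratio between 2 days cannot go below 0.333, so it is given as a description.

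**Figure D2:**
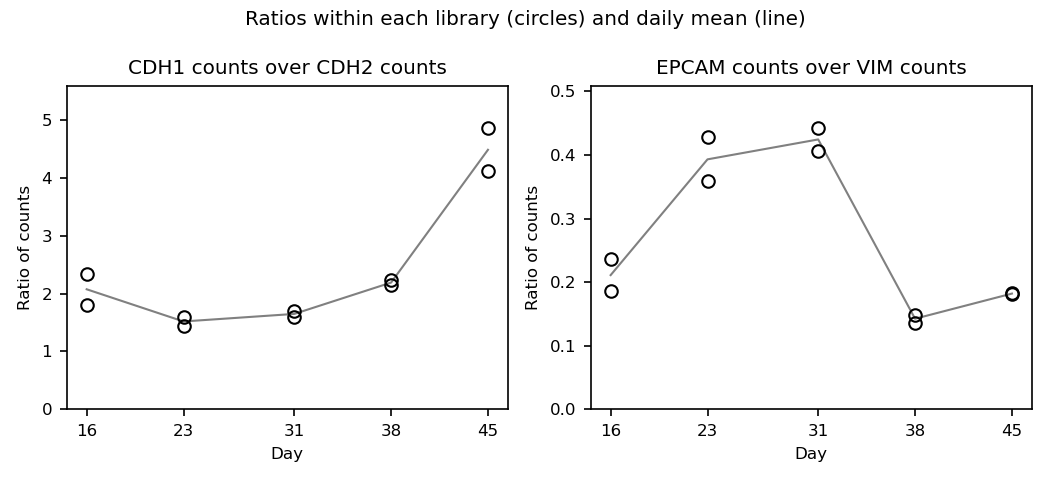
Ratio of CDH1 to CDH2 counts (left) and of EPCAM to VIM counts (right) by day. Circles are single libraries and lines join daily means, and the vertical axes start at 0. The CDH1 to CDH2 ratio stands highest on day 45 (4.11 and 4.86), and the EPCAM to VIM ratio is highest on days 23 and 31 (0.359 to 0.442).

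Vimentin changed most of the 10 genes among those called. VIM (chromosome 10, 17228241 to 17237593, plus strand) had 1710 and 1871 CPM on day 16, 662 and 684 on day 23, 624 and 664 on day 31, 2283 and 2038 on day 38, and 1722 and 2086 on day 45. The libraries fell into a low pair of days, 23 and 31, and a high set, days 16, 38 and 45. Neighbors in the order of means overlapped within each set, but days 16 and 38 did not. VIM fell 2.66-fold by day 23 (log2 fold change -1.41 ± 0.11 SE; edgeR adjusted p = 2.15e-11). It rose 3.36-fold between days 31 and 38 (log2 fold change 1.75 ± 0.11; edgeR adjusted p = 4.31e-14). Between days 38 and 45 the log2 fold change was -0.18 ± 0.11 (95% interval -0.47 to 0.10; edgeR adjusted p = 0.347). The EPCAM to VIM count ratio was 0.185 and 0.237 on day 16, 0.428 and 0.359 on day 23, 0.442 and 0.407 on day 31, 0.148 and 0.136 on day 38, and 0.181 and 0.182 on day 45. Days 23 and 31 were above the other 3 days, with no overlap.

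VIM shares 24.6% of its merged exon bases with transcripts of the opposite strand, 12.7% with VIM-AS1 alone, and the strand setting of the counting is not given in the sources used here. VIM-AS1 had 14 to 107 counts per library against 5704 to 21145 for VIM, and was called in none of the comparisons. In CPM its means were highest on days 23 and 31, where VIM was low, but 1 library of day 45 (7.40 CPM) lay above 1 of day 31 (7.33 CPM). Of the other genes, CDH1, CDH2, SNAI2, TWIST1, ZEB1 and ZEB2 share 3.58 to 7.06% of exon bases with other annotated genes, and EPCAM, ESRP1 and SNAI1 share none.

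Several library and marker measures moved beside VIM, and their part in its change was not tested. RN7SK, an abundant nuclear RNA, took 6.82 and 7.11% of counts on day 16, 4.40 and 4.42% on day 23, 2.92 and 3.86% on day 31, 8.17 and 6.76% on day 38, and 7.04 and 5.14% on day 45. With RN7SK left out, the VIM changes were -1.40 on day 23 and 1.74 on day 38 (edgeR adjusted p = 1.51e-11 and 2.65e-14). The 9 fibroblast markers summed to 701 and 969 CPM on day 16, 1557 and 1507 on day 23, 1540 and 1887 on day 31, 3452 and 3572 on day 38, and 3753 and 3066 on day 45. Their sum was higher on day 23 than on day 16, whereas VIM was lower on day 23. The sum was highest on days 38 and 45. COL3A1, a fibrillar collagen, was the most abundant of them, at 309 to 2144 CPM, and TWIST2 had 0 counts in 9 libraries and 4 in the other. Of the 8 fibroblast markers tested, 6 were called on day 23 (4 higher, 2 lower), against 10.9% of all genes, and 5 on day 38 (3 higher, 2 lower), against 15.0%. The markers did not move as one on day 23. COL3A1 went from 309 and 509 CPM on day 16 to 957 and 953 on day 23. PRRX1, among those called lower, went from 32.8 and 45.4 CPM to 3.77 and 3.66, and COL1A2 from 254 and 283 to 220 and 178.

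The 9 markers of cardiac and smooth muscle cells summed to 36.6 to 52.0 CPM in the 6 libraries of days 16 to 31. In the 4 libraries of days 38 and 45 they summed to 208 to 227 CPM, mostly from the cardiac myosin gene MYH6 (73.9 to 98.3 CPM) and from DES (desmin, 41.6 to 55.3 CPM). On day 38, 5 of the 9 were called, all higher, against 15.0% of all genes. Endothelial markers were low, with sums of 33.1 to 92.2 CPM. Blood cell markers summed to 27.4 and 11.2 CPM on day 16, 3.55 and 5.37 on day 23, and 9.93 and 12.2 on day 31. On day 38 they summed to 12.0 and 5.35 CPM, and on day 45 to 40.3 and 41.8 CPM. CD68 was called lower on day 23 (log2 fold change -2.07) and higher on day 45 (2.15). CD14 was called lower on day 38 and higher on day 45, whereas PTPRC and HBA1 were called at no step. The part of these markers in other changes was not tested. The summed CPM of the epithelial programme described further on was highest on day 38, and that of airway markers on day 45. The part of airway markers in the counts of the epithelial lists was not tested. The 8 airway markers summed to 26.6 and 33.2 CPM on day 16, 23.4 to 49.7 CPM on days 23 and 31, 62.9 and 80.3 CPM on day 38 and 103 and 161 CPM on day 45, with 0 to 4 of the 8 at 0 counts in a library. MUC5B, a gel-forming mucin, was the most abundant over all libraries, at 0.554 to 96.5 CPM. From day 16 to day 45, 6 of the 8 were called, 5 higher and 1 lower, against 24.6% of all genes. Pluripotency markers summed to 248.5 and 270.5 CPM on day 16 and 17.6 and 18.3 CPM on day 45. The thyroid identity of the cells was checked by NKX2-1, at 58.1 to 157 CPM, PAX8, at 477 to 727 CPM, and the thyroglobulin gene TG, at 10.6 to 211 CPM up to day 31 and 4874 to 7961 CPM on days 38 and 45. Reads of the 2 transgenes cannot be separated from those of the native NKX2-1 and PAX8 genes.

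**Figure D3:**
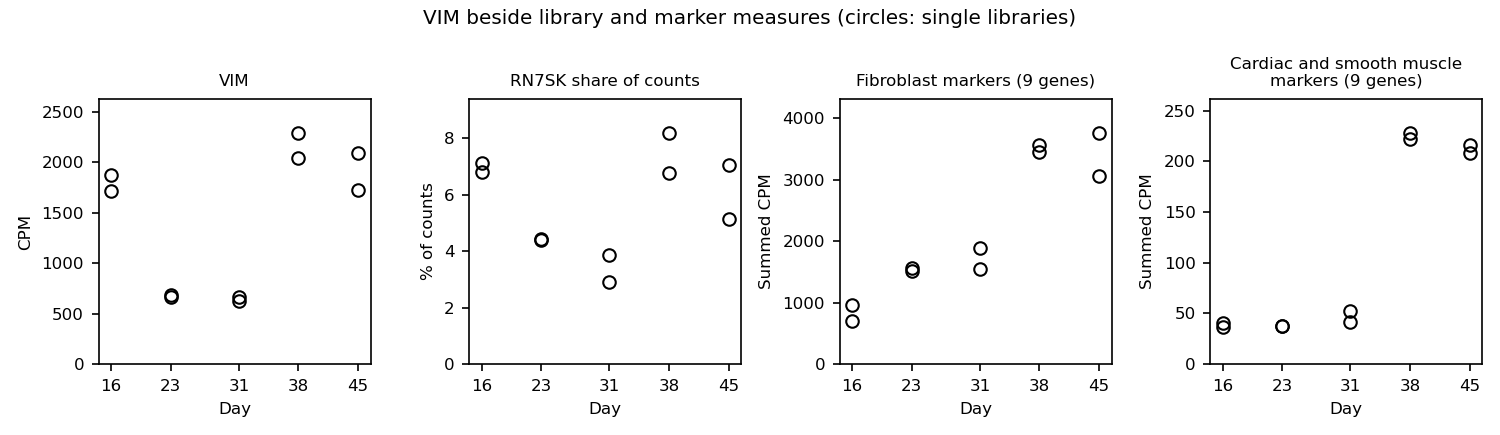
VIM in CPM, the share of counts taken by RN7SK in %, and the summed CPM of 9 fibroblast and 9 cardiac and smooth muscle markers, by day. Circles are single libraries and vertical axes start at 0. VIM and RN7SK are both lowest on days 23 and 31, whereas the fibroblast sum is lowest on day 16 and the muscle sum is 36.6 to 52.0 CPM until day 31.

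Among the transcription factors, the SNAI genes were lowest on days 23 and 31. SNAI1 (Snail; chromosome 20, 49982980 to 49988886, plus strand) had 17.2 and 6.89 CPM on day 16, 2.88 and 5.49 on day 23, 5.63 and 2.33 on day 31, 9.61 and 5.82 on day 38, and 19.6 and 22.8 on day 45. Its day 45 libraries were above all others, and the 2 of day 16 differed by more than those of any other day. SNAI1 differed between days (edgeR adjusted p = 0.000473), but no single step passed. On the log2 scale, the step to day 23 measured -1.53 ± 0.52 (SE; edgeR adjusted p = 0.0532) and the step to day 45 1.46 ± 0.50 (edgeR adjusted p = 0.0558). The former passed with upper-quartile factors, no filter or a replicate block (edgeR adjusted p = 0.0468, 0.0250 and 0.0436) and when 3 of the 10 libraries were left out in turn, over a range of -2.06 to -0.71. The latter passed under 5 of 9 other settings, with log2 fold changes from 1.45 to 1.52, and when 5 of the 10 libraries were left out in turn, over a range of 1.14 to 1.86.

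SNAI2 (Slug; chromosome 8, minus strand) had 16.4 and 15.8 CPM on day 16, 8.20 and 7.20 on day 23, 8.60 and 8.26 on day 31, 14.1 and 11.6 on day 38, and 14.2 and 23.1 on day 45. The libraries of days 23 and 31 were below the other 6. Its levels differed between days (edgeR adjusted p = 0.0262), and the largest step, to day 23, measured -1.06 ± 0.39 on the log2 scale (edgeR adjusted p = 0.0820). Scaled by library size alone, the any-day edgeR adjusted p was 0.0565. It was 0.119 without day 45 replicate 2, 0.0644 without day 23 replicate 2, 0.0516 without day 31 replicate 2 and 0.0521 without day 38 replicate 1, all in edgeR.

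TWIST1 (chromosome 7, 19020991 to 19117636, minus strand) was close to the limit of detection. It had 9 and 14 counts on day 16, 7 and 0 on day 23, 3 and 3 on day 31, 9 and 3 on day 38, and 27 and 14 on day 45. The highest library therefore held 3.92 CPM. In 4 libraries TWIST1 had no more than 3 counts, and no step was called. The intervals were wide, as for day 45 against 38, where the log2 fold change was 2.01 with a 95% interval from -2.23 to 6.25.

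ZEB1 was the one transcription factor of the 5 with a called step. ZEB1 (chromosome 10, 31318495 to 31529814, plus strand), whose promoter window is shown above, had 14.8 and 25.9 CPM on day 16, 48.5 and 39.0 on day 23, 43.2 and 32.0 on day 31, 35.5 and 40.6 on day 38, and 30.5 and 26.0 on day 45. Both libraries of day 16 were below all others, by a small margin from day 45, while days 23, 31 and 38 overlapped. Scaled by library size alone, day 16 replicate 2 (25.7 CPM) was above day 45 replicate 2 (24.8 CPM). ZEB1 rose 2.15-fold by day 23 (log2 fold change 1.10 ± 0.27 SE; edgeR adjusted p = 0.00497). Without replicate 1 of day 16 the value was 0.77 (edgeR adjusted p = 0.0999), and without replicate 1 of day 23 it was 0.94 (edgeR adjusted p = 0.0824). ZEB1-AS1, the divergent antisense gene that shares 4.58% of ZEB1 exon bases, had 30 to 102 counts.

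ZEB2 (chromosome 2, 144364364 to 144521057, minus strand) was highest on day 38, as was ESRP1. Its libraries had 56.7 and 57.0 CPM on day 16, 71.8 and 43.0 on day 23, 61.6 and 79.3 on day 31, 88.6 and 97.3 on day 38, and 70.1 and 72.0 on day 45. Those of day 38 were above all others, and the other days overlapped in order. Scaled by library size alone, day 38 replicate 1 (79.4 CPM) was below day 31 replicate 2 (84.6 CPM). The test of any day passed (edgeR adjusted p = 0.0199), but was lost with library size alone (edgeR adjusted p = 0.106) or without either day 38 library (edgeR adjusted p = 0.0696 and 0.182). At the step to day 38 the log2 fold change was 0.40 ± 0.20 (edgeR adjusted p = 0.198).

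ZEB2 on day 38 and SNAI1 on day 45 were thus above all other libraries, for ZEB2 with TMM scaling but not with library size alone. The days of highest mean overlapped the next ones for ZEB1 (day 23 with day 38) and for SNAI2 and TWIST1 (day 45 with day 16). VIM and SNAI2 were low on the same 2 days, and CDH2 was highest on one of these, day 23. Across the 10 libraries, Pearson's r of log2 CPM was 0.87 between VIM and SNAI2, 0.84 between SNAI1 and SNAI2, 0.25 between ZEB1 and ZEB2, and -0.68 between CDH2 and VIM. It was -0.45 between CDH1 and CDH2 and 0.29 between CDH1 and VIM. These values describe 5 days of 2 libraries each, which share medium and age, and are not tests.

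The genes with profiles most like each of the 9 genes above 5 CPM were found by the same r over the 10 libraries, among 13115 genes. Nearest to VIM were PDK3, a pyruvate dehydrogenase kinase (r = 0.996), RIT1, a Ras-related GTPase (0.989), and ITGA4, the integrin α4 chain (0.984). PDK3 had 200 to 212 CPM on days 23 and 31 and 319 to 361 CPM on the other days, a smaller range than that of VIM. Near to CDH2 were TSPAN6, a tetraspanin (0.988), and PCDHB5, a protocadherin (0.986). The nearest gene to EPCAM was SLBP, which binds the stem-loop of histone mRNA (0.961), and that to ZEB1 was ZC3H13, a part of the m6A methylation machinery (0.970). For the remaining genes the nearest had r between 0.916 and 0.953.

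The wider epithelial programme, 28 genes of junctions, polarity and epithelial surface, was read in the same fit. From day 16 to day 45, 18 of the 28 were called, 15 higher and 3 lower, against 24.6% of all genes, and their median log2 fold change was 0.67 against 0 for all tested genes. MUC1, an apical mucin, rose from 10.6 to 79.9 CPM (log2 fold change 2.91 ± 0.28 SE). MYO5B, a motor of apical traffic, fell from 116 to 54.8 CPM (log2 fold change -1.08). FXYD3, an ion transport regulator, was at 17.4 CPM on day 45 and under the level of 3 counts on day 16. Without day 45 replicate 2, 11 were called, 8 higher and 3 lower.

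By step, 3 of the 28 epithelial genes were called on day 23 (1 higher, 2 lower), 2 on day 31 (both higher), 8 on day 38 (6 higher, 2 lower) and 2 on day 45 (1 higher, 1 lower). These are shares of 10.7, 7.14, 28.6 and 7.14%, against 10.9, 2.25, 15.0 and 11.2% of all genes, so that the counts of days 23 and 45 are at or under the background. On day 38 the split was 2 higher and 3 lower when scaled by library size alone, and the count was 3 without day 38 replicate 1 and 4 without day 31 replicate 2. On day 31 no gene was called without either day 23 library or without day 31 replicate 1. CD24, a surface glycoprotein of epithelial progenitors with near-identical pseudogene copies that make its counts uncertain, was low on the same days as VIM. It fell from 569 to 270 CPM on day 23 (log2 fold change -1.08), rose from 295 to 884 CPM on day 38 (1.58) and fell to 422 CPM on day 45 (-1.07). DSP, the desmosomal plaque protein desmoplakin, was the most abundant gene of the list over all libraries, though not on day 38, at 788 to 958 CPM, and was called at none of these steps.

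The mesenchymal programme, 28 genes of matrix, cytoskeleton and mesenchymal surface, was read likewise. On day 23, 14 of the 28 were called (8 higher, 6 lower), on day 31 it was 7 (4 higher, 3 lower), on day 38 it was 20 (16 higher, 4 lower) and on day 45 it was 9 (3 higher, 6 lower). The shares were 50, 25, 71.4 and 32.1%, against the all-gene shares given for the epithelial list. Its median log2 fold change on day 38 was 0.80 against 0 for all tested genes, and from day 16 to day 45 it was 0.54, with 14 genes called higher and 2 lower, against 24.6% of all genes. The day 31 count fell to 2 without day 23 replicate 1 or day 31 replicate 1, and to 3 without day 31 replicate 2. Of the list, DCN, LUM, POSTN, COL1A2, COL3A1, PDGFRA and THY1 are also fibroblast markers here.

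**Figure D4:**
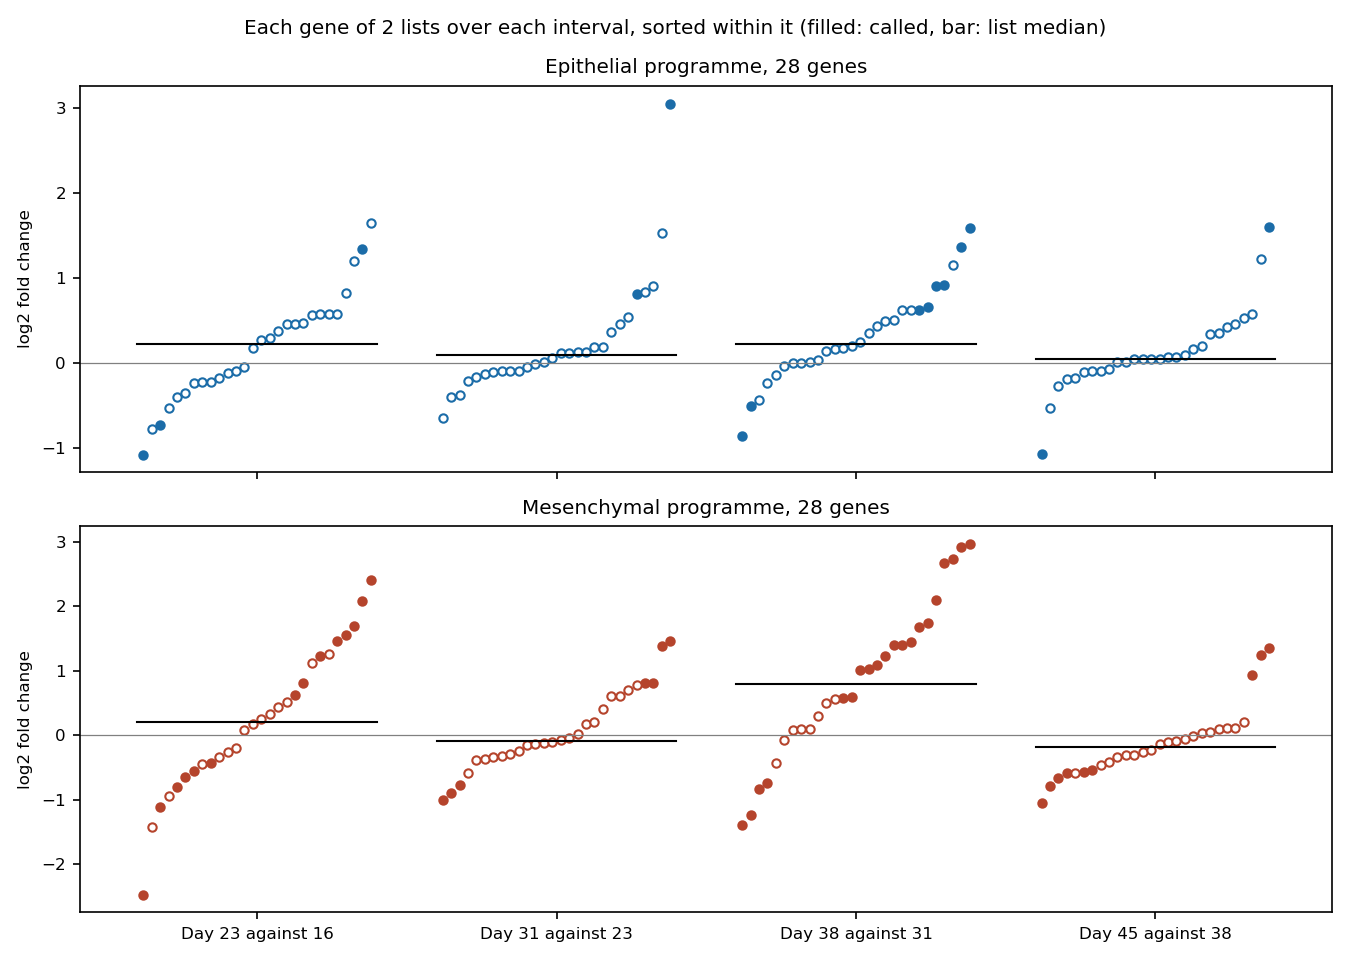
Log2 fold change (vertical axes) of the 28 epithelial genes (top) and 28 mesenchymal genes (bottom) over the 4 intervals, sorted within each interval. Filled circles passed an adjusted p of 0.05 in edgeR's test, and bars mark list medians. On day 38, 20 mesenchymal genes are filled, 16 of them above 0, against 8 epithelial genes.

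Within that list, genes took different courses. COL6A3, a chain of collagen VI, was called at each step. It fell from 688 to 124 CPM on day 23 (log2 fold change -2.47) and to 62.3 CPM on day 31 (-0.995), rose to 487 CPM on day 38 (2.97) and fell to 235 CPM on day 45 (-1.05). LOX, which crosslinks collagen, rose from 17.6 to 134 CPM on day 38 (2.92). Fibronectin (FN1), the most abundant of the list, rose from 2659 to 7302 CPM on day 23 (1.46), fell from 6794 to 4063 CPM on day 38 (-0.74) and fell to 2711 CPM on day 45 (-0.58). DCN and POSTN, a matrix proteoglycan and a matrix adhesion protein, rose on day 23 (2.41 and 2.08).

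Epithelial transcription and splicing factors were read in the same way. Of 13 tested genes of this list, which includes the miR-200 loci, 1 was called on day 23, 2 on day 31, 3 on day 38 (2 higher, 1 lower) and 4 on day 45 (all higher), against 10.9, 2.25, 15.0 and 11.2% of all genes. KLF4, an epithelial differentiation factor, fell from 92.3 to 15.6 CPM on day 23 (log2 fold change -2.57) and rose from 19.2 to 121 CPM on day 45 (2.65). On day 45, OVOL1, a repressor of ZEB1 in other epithelia, rose from 11.2 to 37.4 CPM (1.73), and ELF3 from 58.2 to 132 CPM (1.18). GRHL2, which activates CDH1 in many epithelia, had 48.5 to 74.7 CPM in the 10 libraries and was called at none of the 4 steps.

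Of 17 other factors named in the transition, 4 were called on day 23 (3 higher, 1 lower), 6 on day 31 (3 higher, 3 lower), 6 on day 38 (2 higher, 4 lower) and 6 on day 45, all lower, which are shares of 23.5% on day 23 and 35.3% at the later steps, against the same all-gene shares. From day 16 to day 45, 11 were called, 2 higher and 9 lower, against 24.6% of all genes. The 2 that rose were SOX9, from 9.44 to 81.0 CPM (log2 fold change 3.10), and FOXQ1. FOXQ1 had 0 and 4 counts in the day 16 libraries and was at 27.9 CPM on day 45. ID1, an inhibitor of basic helix-loop-helix factors and a target of BMP signaling, fell from 746 to 290 CPM on day 38 (-1.36) and to 122 CPM on day 45 (-1.25). PRRX1, a mesenchymal homeobox factor and also one of the fibroblast markers above, fell from 39.1 to 3.71 CPM on day 23 (-3.39).

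Other cadherins did not move as one group. Of 21 cadherins tested beside CDH1 and CDH2, 2 were called on day 23 (both lower), 3 on day 31, 4 on day 38 (3 higher, 1 lower) and 5 on day 45 (1 higher, 4 lower). These are shares of 9.52, 14.3, 19.0 and 23.8%, against 10.9, 2.25, 15.0 and 11.2% of all genes, so that those of days 23 and 38 are near the background. CDH3, or P-cadherin, fell with CDH2 on day 45, from 94.2 to 39.3 CPM (log2 fold change -1.26), as did CDH6, from 83.3 to 32.2 CPM (-1.37). CDH17 rose at that step, from 14.6 to 62.1 CPM (2.09). Over the whole course CDH6 fell from 204 to 32.2 CPM (-2.66) and CDH7 from 101 to 8.19 CPM (-3.64), and CDH3, CDH10 and CDH24 were also called lower. Called higher over the same span were CDH17, from 0.739 to 62.1 CPM (6.35), and CDH12 (3.18). CDH16, a cadherin of mature thyroid epithelium that was picked after its values were seen, had 1 to 44 counts per library and was called at no step.

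Among the 10 catenins and related junction proteins, 6 were called on day 23 (4 higher, 2 lower), 1 on day 31, 2 on day 38 and 2 on day 45, against the same all-gene shares. CTNNA1, or α-catenin, which joins cadherins to actin, rose from 243 to 394 CPM on day 23 (log2 fold change 0.70). CTNNB1, or β-catenin, was the most abundant and rose from 613 to 767 CPM between days 16 and 45 (0.33). VCL, or vinculin, rose from 209 to 351 CPM on day 45 (0.75). CTNND2, the other gene called at that step, fell from 39.0 to 6.47 CPM (-2.60). Of 12 intermediate filament genes outside VIM, 3 were called on day 23 (1 higher, 2 lower), 0 on day 31, 3 on day 38 (2 higher, 1 lower) and 4 on day 45 (2 higher, 2 lower), against 10.9, 2.25, 15.0 and 11.2% of all genes. SYNM, or synemin, fell from 80.0 to 8.76 CPM on day 23 (-3.19) and rose from 23.9 to 57.2 CPM on day 45 (1.25). DES, also one of the muscle markers above, rose both on day 23, from 2.13 to 9.05 CPM (2.08), and on day 38, from 7.66 to 53.7 CPM (2.81). LMNA, which encodes the nuclear lamins A and C, fell from 147 to 95.5 CPM on day 38 (-0.62) and rose to 241 CPM on day 45 (1.34).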

How the data were processed

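Sorted NKX2-1GFP+ cells were profiled by total RNA-seq. Per the labels, the authors trimmed reads with Trimmomatic, aligned them to GRCh38.p13 with HISAT2 and counted them per gene with HTSeq, and they deposited raw counts without normalization. The versions and the strand setting are not given in the sources used here. Samples were grouped by day from their labels.

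A gene was tested if 2 or more libraries held 5 or more of its reads, in R 4.3.3 with edgeR 4.0.16 (TMM factors 0.896 to 1.07, glmQLFit and glmQLFTest) in a single fit of all 10 libraries with 1 mean per day. P-values were adjusted by Benjamini-Hochberg over the 21014 genes, with a threshold of 0.05. SEs are the log2 fold change over the root of F, and 95% intervals use the 5 residual degrees of freedom. CPM was computed with the cpm function on TMM-scaled library sizes. The floor of 3 counts covers counting error only, since no molecular identifiers separate PCR copies. The study states 2 biological replicates per sample. Replicate counts differed by more than sampling noise on every day (chi-square per degree of freedom 8.38 to 13.7).

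The 10 genes and all lists were chosen with earlier results of these data known. Named list genes are the called genes with the 3 largest and 3 smallest changes at a mean of at least 5 CPM. Some genes that the rules would name are not reported here. DSP, GRHL2, FN1 and CDH16 were named after their values were seen. The fit was checked on simulated counts. Alternatives were DESeq2 1.42.0, library size alone, upper-quartile factors, no filter, filterByExpr, the 4 libraries compared, a replicate block, an added limit of 1 on the log2 fold change, each library left out and, chosen after seeing the data, RN7SK left out.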

Additional observations from a re-analysis of the deposited data

How the results depend on the processing

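The calls of VIM on days 23 and 38 and of CDH2 on days 23 and 45 kept their direction and side of the threshold without each library and under all settings but a log2 fold change of at least 1, which CDH2 does not reach. With that limit, 2 of the 10 genes were called on day 23, 0 on day 45 and 0 from day 16 to day 45. The epithelial counts were then 1 on day 31, 2 on day 38 and 7 from day 16 to day 45, and the mesenchymal counts 8, 2 and 3 on days 23, 31 and 45. Over all genes they were 1183, 282, 1691 and 1202 for the 4 steps and 3252 from day 16 to day 45.

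With 2 libraries a day, single libraries decide the smaller counts. Among the 10 genes, 2 were called on day 38 with library size alone (CDH2 added) and with only the 4 libraries compared (ESRP1 added). On day 45, 2 were called with library size alone or upper-quartile factors (SNAI1 added), and 3 with no filter or only the 4 libraries compared (SNAI1 and ESRP1 added). From day 16 to day 45, DESeq2 called 2 (CDH1 added). For any day, library size alone left 5, without ESRP1, SNAI2 and ZEB2. In the epithelial programme, DESeq2 called 5 on day 23 and 4 on day 31, no filter gave 4 on day 31, library size alone 5 on day 38, and only the 4 libraries compared 1 on day 31 and 5 on day 45. The causes were not tested. Library size alone moved the median change of all genes to -0.20 (log2) on day 38, and the split of all calls from 1850 higher and 1310 lower to 1183 higher and 2368 lower.

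Same-numbered libraries showed no shared deviation, with correlations between -0.077 and 0.080 in 10 pairs of days. The labels do not say whether they came from a common differentiation run, and these values cannot decide it. With the replicate block, 5 of the 10 genes were called on day 23 (SNAI1 added), 2 on day 38 (ESRP1 added) and 3 on day 45 (ESRP1 and SNAI1 added). It gave 2 from day 16 to day 45 and 9 for any day (CDH1 added in both), and 4 epithelial genes on day 31. TWIST1 then had a log2 fold change of 0.19 on day 31, against -0.24.

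Values near 0 that no test called changed sign. With library size alone these were CDH1 (-0.0593), EPCAM (-0.0458) and ZEB1 (-0.20) on day 38, and ESRP1 (-0.0773) and VIM (-0.00582) from day 16 to day 45. With upper-quartile factors they were ZEB2 on day 23 (-0.0210), ZEB1 on day 38 (-0.0344) and ESRP1 from day 16 to day 45 (-0.00549), and with DESeq2 ZEB1 on day 38 (-0.00885).

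Without each library in turn, the 10 genes gave 1 to 2 calls on day 38, 1 to 3 on day 45, 1 to 2 from day 16 to day 45 and 5 to 9 for any day. The epithelial counts ran from 0 to 5, 3 to 10, 1 to 3 and 11 to 18 for days 31, 38, 45 and day 45 against 16, and the mesenchymal count on day 31 from 2 to 8. All genes called ran from 1350 to 2383, 206 to 646, 1764 to 3613 and 1166 to 2815 over the 4 steps. The log2 fold changes whose sign turned ran from -0.0233 to 0.34 (CDH1) and -0.40 to 0.34 (ZEB2) on day 23. On day 31 they ran from -0.0530 to 0.15 (EPCAM), -0.84 to 0.47 (SNAI1), -1.21 to 4.55 (TWIST1) and -0.0282 to 0.71 (ZEB2). On day 38 the range was -0.19 to 0.25 (ZEB1). From day 16 to day 45 they ran from -0.36 to 0.13 (EPCAM), -0.0945 to 0.12 (ESRP1), -0.0556 to 0.22 (VIM) and -0.17 to 0.53 (SNAI2). Where a day kept 1 library, that library was assumed to vary like the others.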
